A study of Mus musculus with 8 samples.

Results

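The genes described here are the enzymes that place and remove DNA methylation, with 2 proteins that read it. They are 10 listed symbols, Dnmt1, Dnmt3a, Dnmt3b, Dnmt3c, Dnmt3l, Tet1, Tet2, Tet3, Uhrf1 and Mbd1, of 52502 genes to which a deposited exon ID could be assigned. RNA came from mouse germinal vesicle (GV) oocytes, which are fully grown and still held in the first meiotic prophase. In the Kiaa1429 cKO group (genotype Kiaa1429F/F;Zp3-Cre) both alleles of Kiaa1429 were floxed, and in the control group (Kiaa1429F/+;Zp3-Cre) 1 allele was. Both groups thus carried Zp3-Cre, a recombinase expressed from an oocyte promoter, and the controls are not wild type but have 1 floxed copy. Kiaa1429, also named Virma, encodes a subunit of the m6A RNA methyltransferase complex. The mice were C57BL/6 females, 20 days old in one label and 3 weeks old in another, primed with PMSG. Oocytes of both groups were taken into medium with 2.5 mM milrinone, an inhibitor that holds them at the GV stage, and each group had 4 libraries of about 20 pooled oocytes. The labels do not tie libraries to animals, so p-values measure the spread between libraries.

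In mammals, DNA methylation is copied to new strands by Dnmt1, which Uhrf1 brings to half-methylated sites. New methylation is placed by Dnmt3a and Dnmt3b, and in the male germ line of rodents by Dnmt3c, with Dnmt3l as a cofactor that has no activity of its own. The Tet enzymes oxidize methylcytosine as a step towards its removal, and Mbd1 is one of the proteins that bind methylated CpG sites. The growing oocyte acquires its methylation, imprints included, through Dnmt3a and Dnmt3l, and supplies Dnmt1, Uhrf1 and Tet3 to the zygote.

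Deposited counts per library summed to 4399190 to 5064008 in the cKO and to 4247471 to 4790038 in the controls. Reads that met more than 1 exon ID were set apart as ambiguous, 79.3% ± 0.751 of reads in the cKO and 73.8% ± 1.07 in the controls (SD, n = 4 each), so each gene is measured only through stretches that belong to 1 exon ID. Virma itself stood at 19.3 ± 3.23 CPM (counts scaled to the library's exon total) in the cKO and at 67.4 ± 11.1 CPM in the controls (SD, n = 4 each). All 11 listed oocyte markers were detected, and they summed to 20531 ± 1886 CPM in the cKO and 39542 ± 6419 CPM in the controls (SD, n = 4 each, exact permutation p = 0.0286, the smallest that 70 arrangements can give, and 0.0476 adjusted over 5 marker lists). Most of that sum is Bmp15, Gdf9 and Mos, which were called lower with Zp1 and Nlrp5, while the other 6, among them Zp3, Figla and Nobox, were not called. The 17 cumulus and granulosa markers summed to 398 to 685 CPM in the cKO libraries and 199 to 356 CPM in the control libraries (exact permutation p = 0.0286, adjusted 0.0476), with Slc38a3 at 0. Nr5a2 and Inha make up most of this sum, and of 8 tested markers Nr5a2, Inha and Ptgs2 were called higher and Fshr and Cyp19a1 lower. The 8 immune and blood markers summed to 5.48 to 9.38 CPM in the cKO and 0.238 to 1.54 CPM in the controls (exact permutation p = 0.0286, adjusted 0.0476), with Ptprc, Adgre1, Cd74, Hba-a1 and Hbb-bs at 0. C1qa carried nearly all of this difference, at 6.95 ± 1.63 CPM in the cKO and 0.175 ± 0.215 CPM in the controls (SD, n = 4 each), and Cd68 and Lyz2 stayed under 1 CPM on average in both groups. Theca and stroma markers summed to 4.93 ± 0.584 CPM in the cKO and 6.30 ± 0.812 CPM in the controls, and vessel markers to 10.3 ± 3.08 CPM in the cKO and 10.8 ± 2.66 CPM in the controls (SD, n = 4 each), neither passing the test. The part of these sums in the results on single genes was not tested. In such bulk samples fewer cells of a type and less RNA per cell cannot be told apart.

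Of the 10 genes, 3 rose in cKO oocytes. They were Dnmt3c, Tet2 and the reader Mbd1. By edgeR 0 genes of the set fell, with 0 lower at an unadjusted p under 0.05 and 0 called lower by DESeq2. Dnmt1, Uhrf1, Dnmt3b, Dnmt3l and Tet3 did not pass the test, and Dnmt3a and Tet1 had too few counts to be tested. Among all 10673 genes tested, 27.0% were called higher and 27.9% lower in the cKO (edgeR quasi-likelihood test, Benjamini-Hochberg adjusted p under 0.05), so 3 of 8 tested members is a share not far above this background. The median log2 fold change of the 8 members was 0.30, beside 0.02 over all genes tested. The low-count filter asked for at least 2.27 CPM in 4 libraries, taken on exon totals without TMM factors. Mbd1 reached this in 4 cKO and 0 control libraries and Dnmt3c in 4 cKO and 1 control library, while Dnmt3l reached it in 2 cKO and 4 control libraries, so for these genes the filter itself leans towards a difference.

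**Figure D1:**
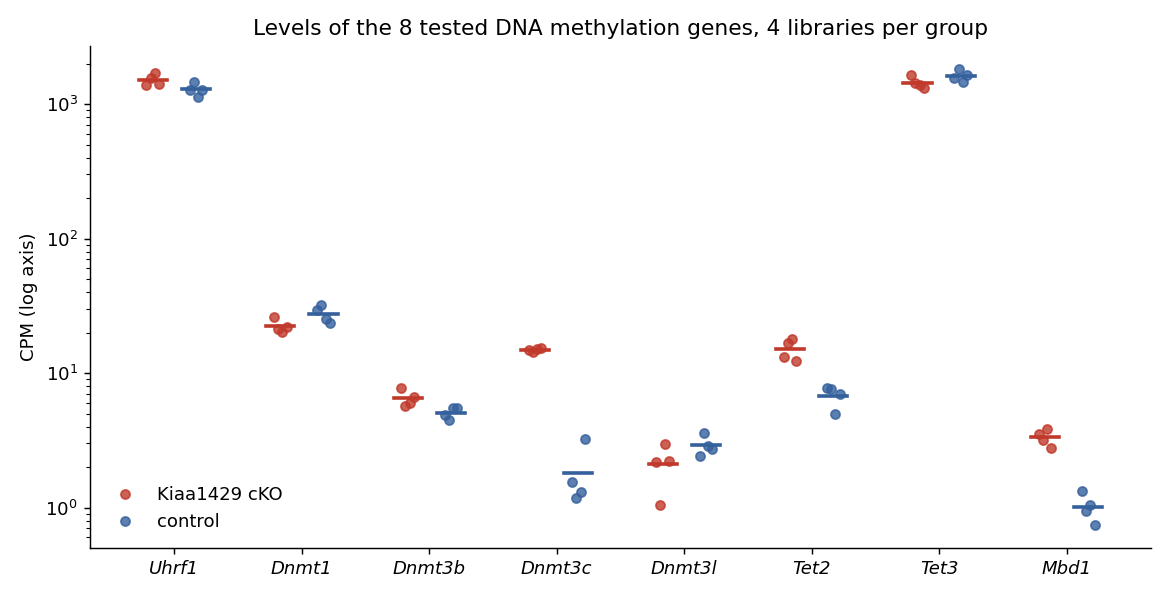
CPM of the 8 tested genes on a log axis, with 1 point per library, a bar at each group mean, Kiaa1429 cKO libraries in red and control libraries in blue. Uhrf1 and Tet3 lie above 1000 CPM in every library, and the groups stand apart for Dnmt3b, Dnmt3c, Tet2 and Mbd1.

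**Figure D2:**
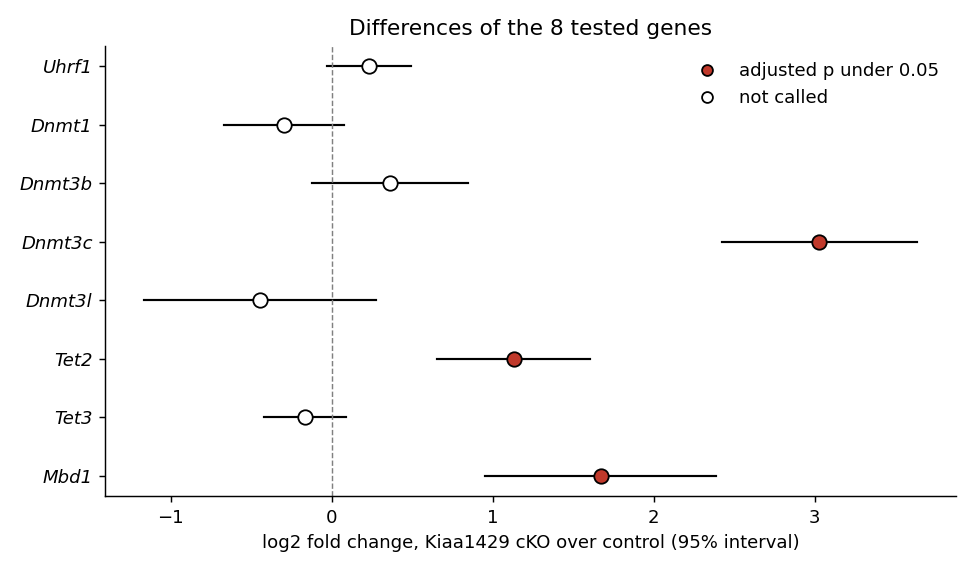
Log2 fold change of cKO over control for the 8 tested genes, with 95% intervals from the edgeR fit and filled points where the adjusted p is under 0.05. The intervals of Dnmt3c, Tet2 and Mbd1 lie above 0 and those of the other 5 genes include 0.

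Dnmt3c and Dnmt3b are neighbouring genes on chromosome 2, and Dnmt3c arose as a copy of Dnmt3b in rodents. Their sequences are shown first, because a read can be assigned to one or the other only where they differ. The first Dnmt3c exon (chr2:153696652-153696808, mm10, plus strand, coding) holds the start codon and took 131 of the gene's 320 counts. Capitals mark the bases of Dnmt3c that are not identical to Dnmt3b in the alignment, and the Dnmt3b line is the stretch aligned to it.
Dnmt3c exon 1: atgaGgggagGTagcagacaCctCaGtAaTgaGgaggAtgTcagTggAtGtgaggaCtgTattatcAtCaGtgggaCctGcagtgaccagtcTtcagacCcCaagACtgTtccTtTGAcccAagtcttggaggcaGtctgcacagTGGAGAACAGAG
Dnmt3b counterpart of exon 1: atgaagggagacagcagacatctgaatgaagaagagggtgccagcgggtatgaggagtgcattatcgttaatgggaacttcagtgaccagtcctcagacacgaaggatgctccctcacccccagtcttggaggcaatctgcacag
The last Dnmt3c exon (chr2:153729766-153729907, mm10, plus strand) took 103 counts.
Dnmt3c exon 19: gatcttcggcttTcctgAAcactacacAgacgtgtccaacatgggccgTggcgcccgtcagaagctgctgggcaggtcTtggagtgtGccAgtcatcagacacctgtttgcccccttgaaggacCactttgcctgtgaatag
Dnmt3b counterpart of exon 19: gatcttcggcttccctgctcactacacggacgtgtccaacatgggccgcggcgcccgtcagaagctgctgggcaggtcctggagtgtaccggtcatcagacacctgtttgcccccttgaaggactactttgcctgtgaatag
Exon 16 (chr2:153723482-153723567, mm10, plus strand) has no base that differs and held 0 counts.
Dnmt3c exon 16: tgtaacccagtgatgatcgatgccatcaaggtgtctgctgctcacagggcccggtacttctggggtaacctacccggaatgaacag

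Over exon 1, 71.3% of Dnmt3c bases were identical to Dnmt3b, and the longest identical run was 13 bases. Exon 19 was 93.7% identical with a longest run of 33 bases. Exons 16, 17 and 18 were 100% identical and held 0 counts in every library. Exons 6 to 10 and exon 12 were 92.5% to 98.3% identical and also held 0 counts, as did exon 5, which was 61.5% identical. Exon 13, at 92.5% identity, held 36 counts in the cKO and 3 in the controls. Counts on Dnmt3c thus came mainly from exons 1, 2, 13 and 19, and for exons 13 and 19 an exchange of reads with Dnmt3b was not tested.

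**Figure D3:**
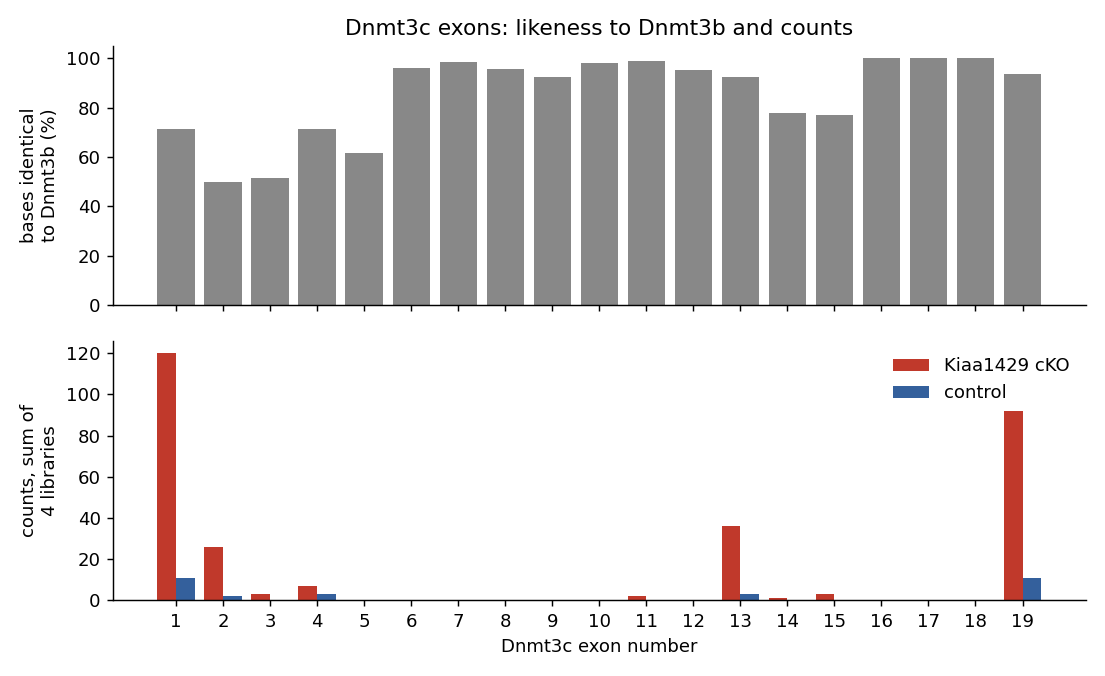
Share of bases in each of the 19 Dnmt3c exons that are identical to Dnmt3b (upper panel) and counts summed over the 4 libraries of each group (lower panel, cKO in red left of control in blue). Exon 1 held 120 counts in the cKO and 11 in the controls, and the identical exons 16 to 18 held 0.

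Dnmt3c stood at 14.9, 14.3, 15.1 and 15.4 CPM in the 4 cKO libraries, from 68, 68, 71 and 83 counts, against 1.54, 1.19, 1.30 and 3.23 CPM in the 4 control libraries, from 7, 5, 5 and 13 counts. Every cKO library lay above every control library, and the cKO libraries lay close together. Control replicate 4 was the highest of its group. The means were 15.0 ± 0.46 CPM in the cKO and 1.81 ± 0.953 CPM in the controls (SD, n = 4 each), a ratio of 8.24 (log2 fold change 3.03, SE 0.28, adjusted p = 5.85e-07, edgeR quasi-likelihood test).

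The higher level of Dnmt3c was seen at both ends of the gene. Exon 1 held 33, 28, 30 and 29 counts in the cKO libraries and 3, 2, 3 and 3 in the control libraries (log2 fold change 3.21, SE 0.33, adjusted p = 1.51e-06 over all exons tested, edgeR). Exon 19 held 20, 16, 25 and 31 counts in the cKO libraries and 1, 2, 2 and 6 in the control libraries (log2 fold change 2.81, SE 0.43, adjusted p = 5.97e-05, edgeR). The groups did not overlap at either exon. Both exons reached the low-count filter only in cKO libraries, where they are high, and both are part of the gene sum given above. Their calls thus lend no support of their own. The share of the gene's counts on exon 1 was 41.4% in the cKO and 36.7% in the controls, and on exon 19 it was 31.7% in the cKO and 36.7% in the controls. A test of exon usage between these 2 exons called no difference (adjusted p = 1.00, edgeR diffSpliceDGE), on only 11 control counts at each exon.

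Dnmt3b, whose product methylates repeats and gene bodies in the early embryo, stood at 7.69, 5.69, 5.97 and 6.69 CPM in the cKO libraries, against 4.84, 4.51, 5.48 and 5.46 CPM in the control libraries. All cKO libraries lay above all control libraries, by a margin smaller than the spread within either group, and 50.1% of all genes tested also had groups that did not overlap. The log2 fold change was 0.36 (SE 0.23, 95% interval -0.13 to 0.85, adjusted p = 0.198, edgeR), which did not pass the test. Of its 210 counts, 132 lay on the exon with the start codon (chr2:153661425-153661602, mm10, plus strand), with 23, 15, 19 and 28 in the cKO libraries and 12, 10, 12 and 13 in the control libraries. That exon had a log2 fold change of 0.65 (with SE 0.28, adjusted p = 0.0662, edgeR), and it was called without cKO replicate 2 (0.79, adjusted p = 0.0426) and with no scaling factors (0.78, adjusted p = 0.0286). It is the exon aligned to exon 1 of Dnmt3c, with which it shares 0 stretches of 31 bases. A coding exon further on (chr2:153665252-153665377) held 11, 12, 8 and 8 counts in the cKO libraries and 9, 9, 9 and 8 in the control libraries, and its groups overlapped. Relative to Dnmt3b, Dnmt3c had 290 counts beside 126 in the cKO and 30 beside 84 in the controls.

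Dnmt3l, the cofactor of the de novo enzymes, was low, at 2.20, 1.05, 2.99 and 2.23 CPM in the cKO libraries against 2.42, 3.56, 2.87 and 2.73 CPM in the control libraries. The groups overlapped, with cKO replicate 2 the lowest library. Its log2 fold change of -0.44 (SE 0.34, 95% interval -1.17 to 0.28, adjusted p = 0.285, edgeR) did not pass the test. Its counts came from 4 exons, 2 of them first exons. The first exon of a coding transcript (chr10:78042287-78042388, mm10, plus strand, 5' UTR) held 10 counts in the cKO and 11 in the controls. Another first exon (chr10:78041947-78042127), of a transcript annotated as non-coding, held 17 counts in the cKO and 22 in the controls, but it overlaps Aire on the other strand, and libraries of this kind do not mark strand. The other annotated first exons of Dnmt3l, among them that at 78049842, held 0 counts in both groups.

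Dnmt3a, the main de novo enzyme of the growing oocyte, could not be tested. Its 81 exon IDs overlap so widely that 66 of them have no base of their own, and it held 1, 4, 2 and 7 counts in the cKO libraries and 5, 5, 2 and 2 in the control libraries. The groups overlapped. Of these 28 counts, 26 lay on 1 short alternative last exon (chr12:3875662-3876062, mm10, plus strand), so they say little of the main transcript. With no filter its log2 fold change was -0.21 (with SE 0.65, adjusted p = 0.843, edgeR).

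Of the maintenance genes, Uhrf1 was the most abundant gene of the set per length. It stood at 1379, 1562, 1701 and 1397 CPM in the cKO libraries and at 1280, 1469, 1124 and 1262 CPM in the control libraries. The groups overlapped, with 2 cKO libraries below control replicate 2. The log2 fold change was 0.23 (SE 0.12, 95% interval -0.03 to 0.49, adjusted p = 0.121, edgeR) and did not pass the test; with no scaling factors, a setting that moved the median of all genes by 0.16, it was 0.39 and passed (adjusted p = 0.0191, edgeR). Its last exon (chr17:56322356-56323486, mm10, plus strand, 144 coding bases and 3' UTR) held 99.8% of the gene's counts in both groups together. Tested alone, that exon had a log2 difference of 0.26 (SE 0.12, adjusted p = 0.0895, edgeR), and it was also called without control replicate 2 (0.33, adjusted p = 0.0427).

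Dnmt1 stood at 26.2, 21.3, 20.0 and 21.9 CPM in the cKO libraries, against 29.3, 31.8, 25.1 and 23.6 CPM in the control libraries. The groups overlapped through cKO replicate 1, which lay above 2 control libraries. The log2 fold change was -0.30 (SE 0.17, 95% interval -0.67 to 0.07, adjusted p = 0.166, edgeR) and did not pass the test. Unlike Uhrf1 and Tet3, Dnmt1 was counted on internal coding exons, because its last exon has only 9 bases that no other exon ID covers. The exon with most counts (chr9:20911733-20912015, mm10, minus strand) held 52, 30, 39 and 46 in the cKO libraries and 55, 56, 41 and 19 in the control libraries, with control replicate 4 the lowest of all. None of the 3 tested Dnmt1 exons passed the test, with log2 fold changes between -0.44 and 0.02.

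Oocytes are known to make a shorter Dnmt1 protein from their own upstream first exon, with translation starting in exon 4. The annotation has a first exon of 156 bases (chr9:20959733-20959888, mm10, minus strand, 5' UTR), whose transcript has its start codon in exon 4, and it held 1, 3, 2 and 5 counts in the cKO libraries and 3, 1, 1 and 2 in the control libraries. The groups overlapped. The first exon that carries a start codon itself (chr9:20952708-20952979), 6909 bases downstream, held 1 count in the cKO and 0 in the controls, over 134 bases of its own. Both groups thus had most of the few first-exon counts at the upstream start. Other annotated first exons (chr9:20951846-20952623 and chr9:20951846-20952605) have 18 and 0 bases of their own, so use of the starts could not be compared. No difference between the groups was detectable at this depth (log2 fold change of the upstream exon with no filter 0.43, SE 0.79, adjusted p = 0.733, edgeR).

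The 250 bases before the counted first exons of Dnmt1 and of the coding Dnmt3l transcript are shown, since these first exons held counts in both groups. They were read from the RefSeq promoter table on GRCm38, the same build as mm10. Capitals mark matches, on either strand, to 4 motifs. These are the CCAAT box (spelled CCAAT) and the E-box, which many helix-loop-helix factors bind (spelled CANNTG). The others are the element bound by the oocyte factor Nobox (spelled TAATTG) and the TATA box (spelled TATAAA).
Dnmt1 upstream start (chr9:20959889-20960138, minus strand): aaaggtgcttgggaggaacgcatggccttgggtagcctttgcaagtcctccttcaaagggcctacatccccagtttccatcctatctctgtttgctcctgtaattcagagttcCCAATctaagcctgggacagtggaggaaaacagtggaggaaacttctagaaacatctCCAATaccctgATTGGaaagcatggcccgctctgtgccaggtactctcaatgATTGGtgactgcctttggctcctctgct
Dnmt3l start (chr10:78042037-78042286, plus strand): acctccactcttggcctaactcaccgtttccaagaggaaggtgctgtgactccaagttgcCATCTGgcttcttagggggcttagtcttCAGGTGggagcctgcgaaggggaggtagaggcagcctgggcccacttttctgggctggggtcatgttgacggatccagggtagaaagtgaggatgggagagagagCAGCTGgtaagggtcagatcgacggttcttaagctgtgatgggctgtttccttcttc
The Dnmt1 window holds 4 CCAAT boxes and 0 of the other motifs, and the Dnmt3l window holds 3 E-boxes and 0 of the other motifs. Of 32851 promoter windows of the same length, 33.8% hold a CCAAT box, 66.2% an E-box, 7.17% a Nobox element and 12.4% a TATA box. These shares count windows with at least 1 match, and how many windows hold as many matches as these was not counted.

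Among the Tet enzymes Tet2 rose. It stood at 13.2, 16.7, 17.9 and 12.3 CPM in the cKO libraries, against 7.70, 7.60, 4.96 and 6.95 CPM in the control libraries. All cKO libraries lay above all control libraries, and control replicate 3 was the lowest. The means were 15.0 ± 2.71 CPM in the cKO and 6.80 ± 1.27 CPM in the controls (SD, n = 4 each), a ratio of 2.21 (log2 fold change 1.13, SE 0.22, adjusted p = 0.000539, edgeR).

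The sum over the gene joined exons that went opposite ways. Exon 3 of Tet2 (chr3:133485512-133488717, mm10, minus strand) is 3206 bases long, holds the start codon and has 3160 coding bases. It held 56, 71, 76 and 61 counts in the cKO libraries and 14, 18, 13 and 9 in the control libraries, with no overlap (log2 fold change 2.09, SE 0.26, adjusted p = 7.97e-06, edgeR). The start of its coding part is shown, with the start codon in capitals. The counts belong to the exon as a whole and are not placed within it.
Tet2 coding start (chr3:133488582-133488671, minus strand): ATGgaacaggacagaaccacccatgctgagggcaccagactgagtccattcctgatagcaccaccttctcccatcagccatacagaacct
Exon 2 (chr3:133514029-133514173, minus strand, 5' UTR), spliced to exon 3 in the coding transcripts and shared with a transcript annotated as retaining an intron, held 3, 7, 5 and 3 counts in the cKO libraries against 17, 12, 5 and 14 in the control libraries. Here control replicate 3 fell within the cKO range, and the other control libraries lay above every cKO library.

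Exon 2 was left out by the low-count filter in the test with all libraries. Without a filter its log2 fold change was -1.57 (with SE 0.47, adjusted p = 0.00911, edgeR). Exon 3 held 93.3%, 89.9%, 90.5% and 92.4% of all Tet2 counts in the cKO libraries, against 40.0%, 56.2%, 68.4% and 32.1% in the control libraries, and these shares did not overlap. The usage of exon 2 within the gene, tested with a minimum count of 5 chosen after its counts had been seen, differed by -2.85 on the log2 scale (adjusted p = 7.41e-06, edgeR diffSpliceDGE). The gene-level usage test with that minimum called Tet2 (adjusted p = 6.88e-06) among 22.8% of 4001 genes tested. Exon 2 passed that minimum only with the help of the control libraries, where it was mostly high. These usage calls thus lend no support of their own. With the usual minimum of 10, where 23.7% of 2847 genes were called, Tet2 entered the usage test only when single libraries were left out. It was then called in 5 of 8 such fits, namely without each cKO library in turn and without control replicate 3, and it could not be tested in the other 3. In these fits exon 2 passed the filter only through the 3 control libraries where it was high, and leaving out control replicate 3 also removes the 1 control library that overlaps the cKO, so these calls lend no support of their own.

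**Figure D4:**
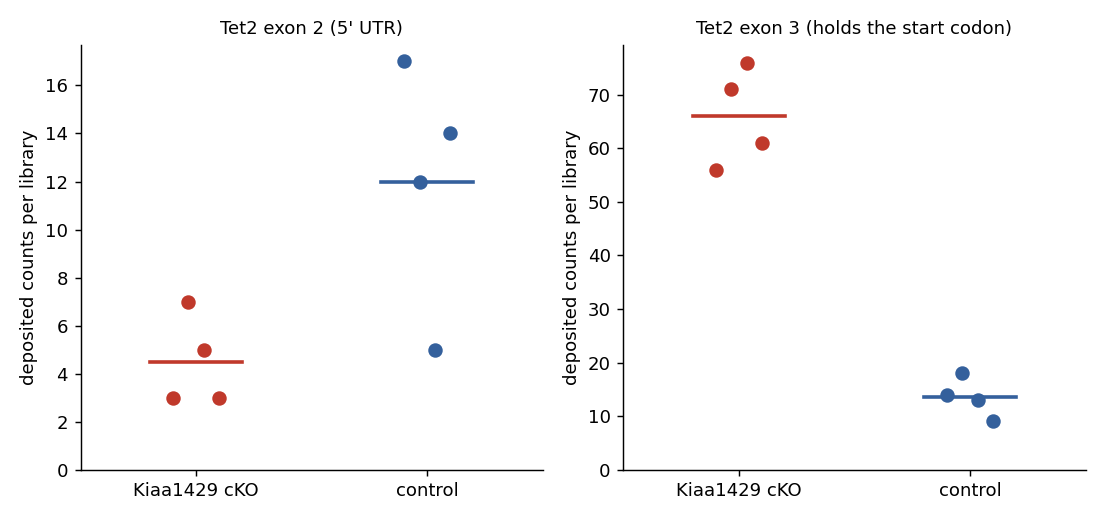
Deposited counts per library on Tet2 exon 2 (left panel) and exon 3 (right panel), with 1 point per library, a bar at the group mean, cKO in red and control in blue. Exon 3 held 56 to 76 counts in cKO libraries and 9 to 18 in control libraries, while exon 2 held 3 to 7 in cKO libraries and 5 to 17 in control libraries.

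A short alternative last exon of Tet2 (chr3:133538762-133539158, minus strand), of a non-coding transcript that ends upstream of the coding exons, held 0 counts in every cKO library and 1, 1, 1 and 4 in the control libraries. With no filter it was called lower (adjusted p = 0.047, edgeR), from 7 counts in all. The share of Tet2 counts on exons that end a transcript was 1.67%, 0.00%, 2.38% and 3.03% in the cKO libraries, against 8.57%, 6.25%, 5.26% and 17.9% in the control libraries. These did not overlap (exact permutation p = 0.0286), but the p was 0.143 when adjusted over the 5 genes compared. In the same test the p of Dnmt1, Tet3 and Uhrf1 lay between 0.257 and 0.857. Dnmt3b, counted among the 5, had a share of 0 in every library, so its outcome was fixed in advance.

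Tet3, the Tet enzyme of the oocyte and zygote, stood at 1640, 1441, 1394 and 1305 CPM in the cKO libraries and at 1549, 1830, 1465 and 1641 CPM in the control libraries. The groups overlapped through cKO replicate 1. The log2 fold change was -0.17 (SE 0.12, 95% interval -0.42 to 0.09, adjusted p = 0.257, edgeR) and did not pass the test. Its last exon (chr6:83362373-83369825, mm10, minus strand, 1781 coding bases and 3' UTR) held 99.9% of its counts. The few other counts lay along the gene, with 14 in the cKO and 8 in the controls on its farthest upstream first exon (chr6:83459007-83459084), which carries a start codon. An alternative last exon inside the gene (chr6:83398439-83398617), of a non-coding transcript, held 0, 0, 0 and 2 counts in the cKO libraries and 4, 5, 3 and 3 in the control libraries. It did not enter the filtered test, and with no filter it was called lower (log2 fold change -2.81, SE 0.93, adjusted p = 0.0232, edgeR), beside 12.3% of 80902 exons called in either direction.

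Tet1, the Tet enzyme of embryonic stem cells and primordial germ cells, held 1, 0, 0 and 1 counts in the cKO libraries and 0, 0, 0 and 1 in the control libraries. These lie at or below 3 counts per library, so no level or difference was detectable. On exon totals without TMM factors, 3 counts are 0.592 to 0.682 CPM in the cKO and 0.626 to 0.706 CPM in the controls.

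Mbd1, which binds methylated CpG sites and recruits repressors, rose. It stood at 3.52, 3.16, 3.84 and 2.79 CPM in the cKO libraries, from 16, 15, 18 and 15 counts, against 1.32, 0.950, 1.04 and 0.745 CPM in the control libraries, from 6, 4, 4 and 3 counts. The groups did not overlap. The means were 3.33 ± 0.454 CPM in the cKO and 1.01 ± 0.239 CPM in the controls (SD, n = 4 each), a ratio of 3.28 (log2 fold change 1.67, SE 0.34, adjusted p = 0.000641, edgeR). Most of its counts lay on a last exon of 2556 bases (chr18:74278679-74281234, mm10, plus strand), 53 in the cKO and 14 in the controls, and that exon was also called higher (log2 fold change 1.70, SE 0.36, adjusted p = 0.000985, edgeR). This last exon reached the low-count filter only in cKO libraries, so its call lends no support of its own. It belongs to 1 of the annotated Mbd1 transcripts. A coding exon shared by several transcripts (chr18:74276407-74276715) held 11 counts in the cKO and 3 in the controls.

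At exon level, 65 of the set's 363 exon IDs held any count and 10 entered the test. Of these 4 were called higher, 2 of Dnmt3c and 1 each of Tet2 and Mbd1, 0 were called lower (0 also at an unadjusted p under 0.05) and 6 were not called, beside 26.2% higher and 27.3% lower among 14052 exons tested (edgeR quasi-likelihood test). The Dnmt3c exons and the Mbd1 exon reached the low-count filter only in cKO libraries, while exon 2 of Tet2, lower in the cKO, did not enter. The filter thus shapes this count of directions. With no filter 3 exons were called lower, which are those of Tet2 and Tet3 described above.

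Levels of the genes can be compared with each other only per length. Per 1000 bases that belong to 1 exon ID, mean CPM in the cKO and the controls was 494 and 420 for Uhrf1 and 115 and 129 for Tet3. Next in the cKO came Dnmt3c at 6.73 CPM per kb, Dnmt1 at 4.53, Dnmt3b at 2.42, Tet2 at 1.37, Dnmt3l at 1.18, Mbd1 at 0.715, Dnmt3a at 0.107 and Tet1 at 0.0405. In the controls the order after Tet3 was Dnmt1 at 5.56 CPM per kb, Dnmt3b at 1.89, Dnmt3l at 1.61, Dnmt3c at 0.816, Tet2 at 0.619, Mbd1 at 0.218, Dnmt3a at 0.127 and Tet1 at 0.0248. The length used for Dnmt3c includes exons 6 to 12 and 16 to 18, which are near identical to Dnmt3b and held 0 to 2 counts in a group, so its level per kb is lower than over its other exons alone and its place among its neighbours is uncertain. In the cKO the library ranges of Tet2 and Dnmt3l, of Dnmt3l and Mbd1 and of Dnmt3a and Tet1 overlapped. In the controls those of Dnmt3b, Dnmt3l, Dnmt3c and Tet2 overlapped each with its neighbour, as did those of Mbd1, Dnmt3a and Tet1. The level of Uhrf1 and Tet3 rests on long last exons, of which 1131 of 1131 bases could be counted in Uhrf1 and 5669 of 7453 in Tet3, while short exons lose read pairs that reach into a neighbouring exon, and the part of this in the gap between these genes and the rest was not tested.

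Pearson's r was taken of log2 CPM (prior count 2) over the 8 libraries, and it largely restates the gap between the groups. By it the genes that followed Tet2 and Dnmt3c most closely were named. For Tet2 they were Etnk1 (r = 0.995), an ethanolamine kinase, Ppm1k (r = 0.995), a mitochondrial phosphatase, and Ccdc112 (r = 0.994). For Dnmt3c they were Rgs7bp (r = 0.997), which binds regulators of G protein signalling, Atp5g3 (r = 0.996), a subunit of ATP synthase, and Hoxd8 (r = 0.996), a homeobox gene. All 6 were higher in the cKO, with log2 fold changes between 1.01 and 4.86.

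Around these enzymes, 66 other genes of the pathway were listed in 7 groups by role, and 39 could be tested. Of these 14 rose and 5 fell in the cKO, with a median log2 fold change of 0.22. These shares, too, stand beside 27.0% higher and 27.9% lower among all genes. The low-count filter was reached by 7 in all 4 cKO libraries but not in all control libraries. They were Cxxc5, Cul4a, Gadd45a, Gadd45b, Gnmt, Mat2a and Nsd2, and all but Nsd2 were called higher. For these genes the filter itself leans towards a difference.

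**Figure D5:**
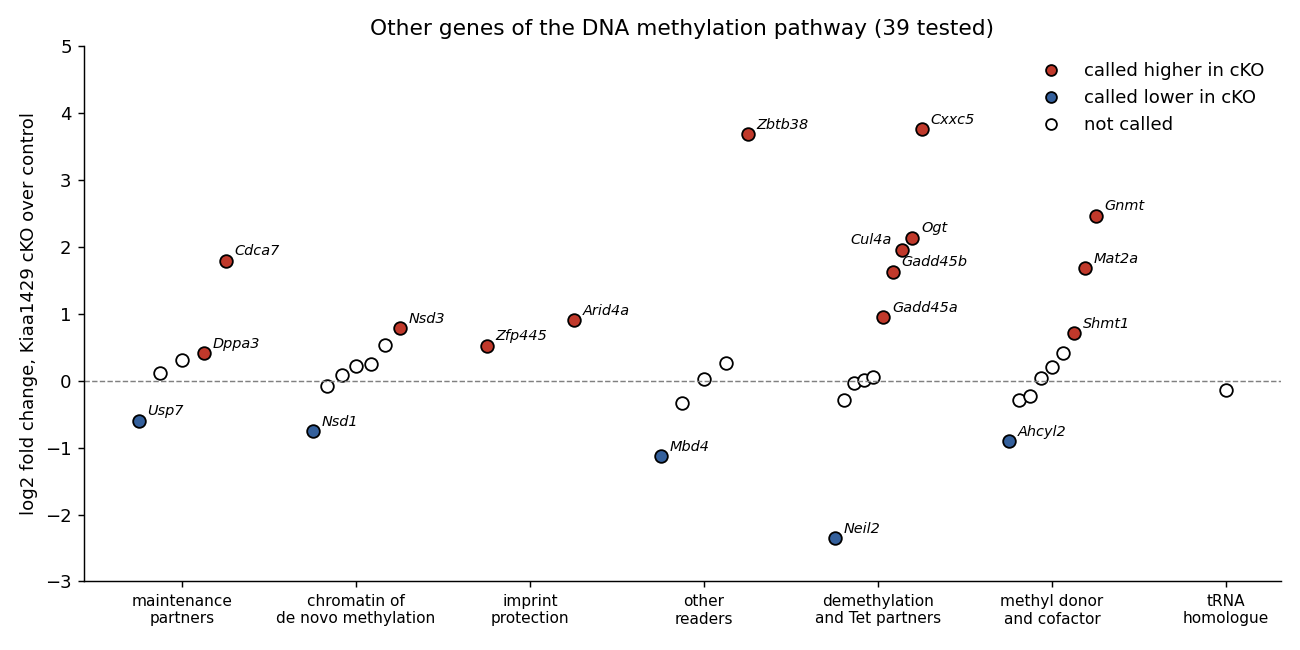
Log2 fold change of cKO over control for the 39 tested pathway genes, by role, with red points called higher, blue points called lower and open points not called (edgeR, adjusted p under 0.05). The farthest from 0 are Cxxc5 and Zbtb38 upward and Neil2 downward.

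Of 5 tested partners of maintenance methylation, 2 rose and 1 fell. Cdca7, which with the remodeller Hells opens chromatin for methylation, stood at 45.8 ± 5.55 CPM in the cKO and 13.2 ± 6.23 CPM in the controls (SD, n = 4 each; log2 fold change 1.79, SE 0.26). Dppa3, a maternal protein known in mouse to keep Uhrf1 off chromatin, stood at 2867 ± 193 CPM in the cKO and 2161 ± 337 CPM in the controls (log2 fold change 0.41, SE 0.13, adjusted p = 0.0131, edgeR). Usp7, a deubiquitinase that binds Dnmt1 and Uhrf1, fell to 134.6 ± 16.3 CPM in the cKO, against 204 ± 37.9 CPM in the controls (log2 fold change -0.60, SE 0.15). Hells and the replication clamp Pcna were not called, though Pcna passed the test with no scaling factors and with last exons left out.

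Of 7 tested genes for the chromatin marks that guide de novo methylation, 1 rose and 1 fell. Nsd1, which writes H3K36 dimethylation, stood at 217 ± 25.6 CPM in the cKO and 368 ± 41.0 CPM in the controls (log2 fold change -0.76, SE 0.13, adjusted p = 0.000182, edgeR), but with last exons left out of the sums it was called higher, by 1.53 (adjusted p = 0.000609). Its paralog Nsd3 was called higher (log2 fold change 0.78, SE 0.24). Setd2, whose H3K36 trimethylation directs methylation in the oocyte, had a log2 fold change of 0.09 and was not called, and neither were Nsd2, Cxxc1, Hira and Qser1. Cxxc1 (log2 fold change 0.54, SE 0.24, adjusted p = 0.0667, edgeR) was called higher under 5 alternatives, among them without cKO replicate 4 (0.65) and without control replicate 2 (0.69).

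Both tested genes of imprint protection rose. Zfp445, a zinc finger protein that binds imprinted regions, stood at 77.9 ± 4.09 CPM in the cKO and 54.1 ± 3.36 CPM in the controls (SD, n = 4 each; log2 fold change 0.52, SE 0.13). Arid4a stood at 53.7 ± 5.13 CPM in the cKO and 28.7 ± 3.07 CPM in the controls (log2 fold change 0.90, SE 0.16). Zfp57, Trim28, Zfp42 and Arid4b had too few counts to be tested.

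Of 5 other readers tested, 1 rose and 1 fell. Zbtb38, a zinc finger protein that binds methylated DNA, stood at 101 to 186 CPM in the cKO libraries and at 8.35 to 11.4 CPM in the control libraries (log2 fold change 3.68, SE 0.21). Mbd4, a glycosylase that repairs mismatches from deaminated methylcytosine, fell to 3.62 ± 0.885 CPM in the cKO, against 7.97 ± 1.82 CPM in the controls (log2 fold change -1.13, SE 0.27). Mbd2, Mbd5 and Zbtb33 were not called, but Zbtb33 was called lower without control replicate 3 (log2 fold change -0.56, adjusted p = 0.0218, edgeR) and Mbd2 higher with last exons alone (0.68).

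Of 10 tested genes of demethylation and the partners of Tet enzymes, 5 rose and 1 fell. Cxxc5, a zinc finger protein that binds unmethylated CpG and interacts with Tet2, stood at 24.8 ± 2.89 CPM in the cKO and 1.83 ± 0.592 CPM in the controls (SD, n = 4 each; log2 fold change 3.76, SE 0.26). Ogt, a glycosyltransferase that binds Tet2 and Tet3, stood at 405 to 497 CPM in the cKO libraries and 67.6 to 116 CPM in the control libraries (log2 fold change 2.14, SE 0.17). Neil2, a repair glycosylase, fell to 13.9 ± 3.13 CPM in the cKO, against 71.2 ± 13.8 CPM in the controls (log2 fold change -2.36, SE 0.20). Of the ubiquitin ligase that acts on Tet enzymes, the scaffold Cul4a stood at 6.35 ± 0.159 CPM in the cKO and 1.60 ± 0.544 CPM in the controls (log2 fold change 1.96, SE 0.29), while Cul4b, Ddb1 and Dcaf1 had log2 fold changes between -0.04 and 0.05 and were not called. Cul4b stood at 114 ± 15.5 CPM in the cKO and 113 ± 16.7 CPM in the controls. Of the 5 genes that rose, only Ogt reached the low-count filter in all control libraries. Cxxc5 and Gadd45a reached it in 1 control library each, and Cul4a and Gadd45b in 0. For these genes the filter itself leans towards a difference.

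Of 9 tested genes for the methyl donor and the cofactors, 3 rose and 1 fell. Mat2a, which makes S-adenosylmethionine, stood at 6.84 ± 1.72 CPM in the cKO and 2.14 ± 0.790 CPM in the controls (SD, n = 4 each; log2 fold change 1.68, SE 0.32). Mat2b, its regulatory subunit, had a log2 fold change of -0.23 and was not called. Gnmt, which consumes S-adenosylmethionine, stood at 7.09 ± 1.01 CPM in the cKO and 1.26 ± 0.38 CPM in the controls (log2 fold change 2.47, SE 0.30). Mat2a reached the low-count filter in 4 cKO and 2 control libraries, and Gnmt in 4 cKO and 0 control libraries. For both the filter itself leans towards a difference. Shmt1, of the folate cycle, was called higher (log2 fold change 0.71, SE 0.28, adjusted p = 0.0437, edgeR) and Ahcyl2 lower (log2 fold change -0.90, SE 0.31, adjusted p = 0.0218, edgeR), and these calls were lost under 8 and 5 of the alternative settings tried. Shmt1 lost its call without cKO replicate 1, 2 or 4 or control replicate 1, 3 or 4 (log2 fold change 0.53 to 0.75), and Ahcyl2 without cKO replicate 2 or 3 or control replicate 3 (-0.84 to -0.69). Trdmt1, a homologue of the DNA methyltransferases that methylates tRNA, had a log2 fold change of -0.14 and was not called.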

How the data were processed

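RNA of 8 GV oocyte libraries, 4 Kiaa1429 cKO and 4 control, was analysed from counts per exon ID that the authors deposited, whole numbers and not normalized. Per the submitters' processing notes, STAR and HTSeq were used with mm10. Their versions and options, and the annotation release, were not given in the sources used here. Per the labels' protocols, cDNA was primed with oligo-dT, amplified, tagmented and read as pairs, which does not mark strand. The 5 summary rows that name no exon stayed out of library sizes and tests.

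Exon IDs were matched to GENCODE M21 ignoring versions: 494230 (99.6%) matched, and the rest, with 0.252% of counts, were left out. Last exons held 76.8% of counts. Gene counts are sums over exon IDs. Genes and exons kept by filterByExpr (minimum count 10) were normalized with TMM factors. Groups were compared in edgeR 4.0.16 (R 4.3.3, limma 3.58.1) by its two-sided quasi-likelihood test, in a model with no other term, with Benjamini-Hochberg adjustment over everything tested and a threshold of 0.05. Exon usage was tested with diffSpliceDGE in genes with at least 2 kept exons. For single values, an exact permutation test (two-sided) was used. CPM uses exon-count totals scaled by TMM factors. The low-count filter and the CPM given for 3 counts use exon totals without these factors. The tests were tried on simulated counts.

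The genes, lists and alternatives were chosen with earlier results of these data known. One listed gene is not reported here. The text names all 10 members, up to 4 tested genes of smallest p per list, and the 3 genes most correlated with each of Tet2 and Dnmt3c. Other genes in the pathway paragraphs, and the exons, were named after their values were seen. The alternatives were other scaling, other filters, DESeq2 1.42.0, a replicate block, protein-coding genes alone, choices of exons, and leaving out each library. Promoter windows were read from a RefSeq table for 8 of the 10 members, and none was read for Dnmt3c and Mbd1. No 2 libraries agreed within sampling noise.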

Additional observations from a re-analysis of the deposited data

How the results depend on the processing

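Over 17 to 19 alternative settings in which each could be tested, Dnmt3c (log2 fold change 2.71 to 3.43), Tet2 (1.01 to 1.40) and Mbd1 (1.54 to 1.83) stayed called higher, and Dnmt1, Dnmt3b, Dnmt3l and Tet3 stayed uncalled with their sign. Uhrf1 was called only with no scaling factors (0.39), and had a log2 fold change of -0.08 with last exons left out. Mbd1 could not be tested with last exons left out, nor Tet2 with last exons alone. With last exons left out, 1312 genes were called higher and 1443 lower, 5 pathway genes were called higher and 3 lower, and Nsd1 turned to 1.53. The cause of the turn of Nsd1 was not tested, and the counts fall with the 5725 genes that could be tested. With last exons alone 3 pathway genes were called lower. Arid4a lost its call with last exons left out and Dppa3 among protein-coding genes alone.

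Member exons called lower numbered 3 with no filter, and 0 to 2 when 1 library was left out, namely exon 2 of Tet2 and, without control replicate 3, also a Dnmt1 exon. Members called for exon usage numbered 1 with a minimum count of 5, an alternative chosen after seeing the data, and 0 to 1 when 1 library was left out. Replicate numbers did not pair the libraries (correlations of same-numbered deviations -0.05 to 0.10), and the replicate block left 2885 genes called higher and 2908 lower, with 3 members higher.

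Depth limits the low genes. On exon totals without TMM factors, 3 counts are 0.592 to 0.706 CPM. Dnmt3a and Tet1 lie at or near this, and reads counted as ambiguous are not in any value.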
